A study of Mus musculus with 9 samples.

Results

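The genes described here are 31 markers of fibroblasts, the cells that serve as feeders under cultured mouse embryonic stem cells. A row of the count table was a member if its symbol, or any symbol of a row merged from several genes, was on the list, and all 31 were found among 30232 gene rows. Col5a1 shares its row with the transcript BC152372, so its counts cannot be separated from it. After the filter on low counts 29 members remained for testing, and Lum and Fap were too low.

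Feeder cells are embryonic fibroblasts that have been irradiated so that they no longer divide but still secrete factors and matrix that help stem cells stay undifferentiated. Fibroblasts lay down collagen fibrils, decorate them with fibronectin, proteoglycans and other glycoproteins, cross-link and remodel them with secreted enzymes, and pull on them with a contractile cytoskeleton. Undifferentiated stem cells make little fibrillar collagen, so such transcripts in a stem cell library are commonly read as feeder carry-over, although several members, among them Vim and Fn1, are not confined to fibroblasts and differentiating stem cells switch on many of the others.

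The series holds 9 libraries of mouse embryonic stem cells, 5 with a knockout of Gzf1, which encodes a zinc finger protein, and 4 wild type. Knockout replicates 1 and 2 and wild-type replicates 1 and 2 are of the RGM line and were sequenced in run2. Knockout replicates 3, 4 and 5 and wild-type replicate 3 are of the V6.5 line, and wild-type replicate 4 is of a line labelled Cas9-GFP; these 5 were sequenced in run1. All were grown on irradiated embryonic fibroblasts in medium with serum and LIF, and per the labels the feeders were depleted before RNA was taken, by a procedure not given in the sources used here. RGM cells and run2 coincide, so cell line and run cannot be told apart. No library of pure feeders and none of cells grown without feeders was used here, so the levels below cannot be turned into a number of feeder cells. In bulk RNA, more fibroblasts in a library and more of these transcripts per cell cannot be told apart. Whether libraries of 1 group came from separate clones or cultures is not given, so the spread between them may be technical.

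Library totals were 2568489 to 3704162 counts in RGM cells and 4872127 to 7072697 counts in run1. Levels are in CPM, the usual depth-scaled counts, with library sizes adjusted by the trimmed mean of M values (TMM). A floor of 3 counts corresponds to 0.412 to 1.18 CPM and covers counting error only. Gzf1 measured 5.45, 14.2, 1.66, 9.40 and 5.24 CPM in knockout replicates 1 to 5, against 28.6, 29.995, 8.11 and 18.7 CPM in wild-type replicates 1 to 4. Knockout replicate 4 lay above wild-type replicate 3, of the same line and run. Knockout replicate 2 also lay above it, but across line and run, and lay below both RGM wild types. Where in the gene the edit lies is not stated, and transcript ends counted outside the edited part do not check it. The summed level of 14 stem cell genes, which include Pou5f1, Sox2 and Nanog, lay between 6496 and 8322 CPM in all 9 libraries.

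The markers were present in every library and took a small share of it. Added up, the 31 members measured 5207 and 7801 CPM in the RGM knockout libraries and 6682 and 6049 CPM in the RGM wild-type libraries. In run1 the sums were 3571, 2896 and 2506 CPM in the V6.5 knockout libraries, 2938 CPM in the V6.5 wild-type library and 2521 CPM in the Cas9-GFP wild-type library. All 4 RGM libraries therefore lay above all 5 libraries of run1. As a share of all gene counts the members took 0.520% to 0.770% in RGM cells and 0.241% to 0.369% in run1.

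**Figure D1:**
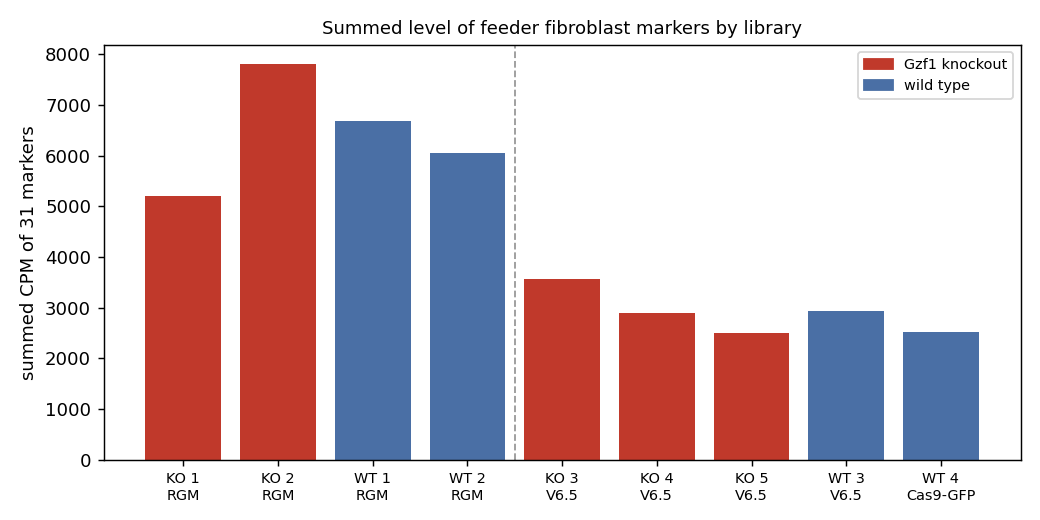
Summed level of the 31 fibroblast markers in each library, in CPM, with Gzf1 knockout libraries in red and wild-type libraries in blue; the dashed line parts RGM cells of run2 (left) from run1 (right). The 4 RGM libraries sit between 5207 and 7801 CPM and the 5 libraries of run1 between 2506 and 3571 CPM.

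The summed level parted the cell lines but not the genotypes. It averaged 6435 ± 1093 CPM in RGM cells and 2978 ± 441 CPM in V6.5 cells (SD, n = 4 each), a ratio of 2.16. The ratio was 2.17 between RGM and V6.5 knockout libraries and 2.17 between RGM and V6.5 wild-type libraries. Between genotypes the sums averaged 4396 ± 2165 CPM in knockout libraries (SD, n = 5) and 4547 ± 2122 CPM in wild-type libraries (SD, n = 4), a ratio of 0.967. Knockout over wild type was 1.02 within RGM cells and 1.10 within run1, and the ranges of the genotypes overlapped in both runs. The sum is weighted towards highly expressed members, among them Vim and Fn1, which are not confined to fibroblasts. Vim averaged 1315 CPM in RGM and 534 CPM in V6.5 cells, and Fn1 992 and 506 CPM. Col1a1 averaged 404 and 262 CPM. These sums are descriptions, and the tests that follow are on single genes.

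No member was called between the genotypes. In a model of all 9 libraries with a term for run, 0 of 29 tested members passed an adjusted p of 0.05 in edgeR's quasi-likelihood test, against 0.0316% of all 12645 tested genes. None of the 29 had an unadjusted p under 0.05 either, the smallest being 0.163 for Fn1, and DESeq2 and limma voom also called 0. The log2 fold changes ran from -0.21 for Col6a3 to 0.50 for Dcn, with standard errors of 0.12 to 0.37. Their median was 0.15 and 23 of 29 were above 0, against a median of 0.01 and 52.6% of genes above 0 over all genes tested. That median depended on the fit and on single libraries. With limma voom, which weights libraries by quality, it was -0.00074 and 14 of 29 were above 0, and with no term for run it was -0.03, also with 14 above 0. Without knockout replicate 2 it was 0.03 with 16 above 0, and without knockout replicate 1 it was 0.28 with 25 above 0. No member had knockout and wild-type libraries that did not overlap, a separation seen in 0.443% of all tested genes.

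Values of single genes show how far apart libraries of 1 genotype were. Fn1, fibronectin, which links cells to the matrix, measured 902 and 1182 CPM in RGM knockout and 963 and 920.4 CPM in RGM wild-type libraries. In run1 Fn1 measured 548, 473 and 508 CPM in V6.5 knockout libraries, 493.5 CPM in the V6.5 wild type and 389.8 CPM in the Cas9-GFP wild type. The knockout difference of Fn1 was small (log2 fold change 0.18, SE 0.12, adjusted p = 0.9998), and in each run the genotypes overlapped. Dcn, decorin, a small proteoglycan that binds collagen fibrils, had 4.16 and 13.0 CPM in RGM knockout and 7.55 and 8.29 CPM in RGM wild-type libraries. Its levels were 2.90, 3.55 and 2.95 CPM in V6.5 knockout libraries, 1.92 CPM in the V6.5 wild type and 1.32 CPM in the Cas9-GFP wild type, near the floor of counting. Dcn had the highest fitted knockout value of the 29 but did not pass the test (log2 fold change 0.50, SE 0.37, adjusted p = 0.9998). Col1a1 (0.16, SE 0.25), Col12a1 (0.37, SE 0.27) and Vim (-0.06, SE 0.14), given as log2 fold changes, did not pass either.

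No member was called within a run either. In RGM cells 0 of 29 members were called between knockout and wild type, as were 0% of all genes, and the smallest unadjusted p of a member was 0.190. DESeq2 and limma voom called 0 members in either run. In run1 0 of 29 were called, against 0.0158% of all genes, with a smallest unadjusted p of 0.104. The median log2 fold change of the members was 0.10 in RGM cells and 0.19 in run1, and both rested on single libraries. In run1 it was -0.0086, with 13 of 29 above 0, without wild-type replicate 4 (Cas9-GFP), and 0.02, with 17 above 0, without knockout replicate 3. It was 0.32, with 26 above 0, without wild-type replicate 3, and 0.31, with 26 above 0, without knockout replicate 5. The difference of the knockout effect between the runs, tested as an interaction, was called for 0 of 29 members and for 0% of all genes, with a members' median of -0.06 and a smallest unadjusted p of 0.101.

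A few members parted the genotypes within 1 run without passing the test. In RGM cells the genotypes did not overlap for 2 of 29 members, against 34.6% of all tested genes, and in run1 for 2 of 29, against 13.5%. Both shares lie below those of all genes, so the values that follow are descriptions and no result about the members. In RGM cells Ctgf and Col6a3 were lower in both knockout libraries than in both wild-type libraries. Col6a3 had 7.69 and 8.29 CPM in RGM knockout and 14.3 and 9.08 CPM in RGM wild-type libraries (log2 fold change -0.56, SE 0.41, adjusted p = 1). Ctgf, the CCN protein also called Ccn2, had 413 and 421 CPM in RGM knockout and 452 and 482 CPM in RGM wild-type libraries (log2 fold change -0.16, SE 0.22, adjusted p = 1). In run1 the genotypes overlapped for Ctgf, with 139, 128 and 117 CPM in V6.5 knockout libraries, 76.1 CPM in the V6.5 wild type and 126 CPM in the Cas9-GFP wild type (log2 fold change 0.35, SE 0.20, adjusted p = 0.9995). Fstl1, a secreted glycoprotein of the follistatin family, and Dcn were higher in all 3 knockout libraries of run1 than in both of its wild types. Fstl1 measured 91.8, 88.3 and 87.4 CPM in V6.5 knockout libraries, against 71.7 CPM in the V6.5 wild type and 60.5 CPM in the Cas9-GFP wild type (log2 fold change 0.43, SE 0.25, adjusted p = 0.9995). In RGM cells Fstl1 measured 76.2 and 119.6 CPM in knockout and 143 and 82.9 CPM in wild-type libraries, which overlap.

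Between the cell lines most members differed. With genotype as a term, 21 of 29 tested members were higher in RGM than in V6.5 cells, where 19.8% of all genes were called higher, and 1 of 29 was lower, where 20.5% of all genes were called lower. The median log2 fold change was 1.05 over the members and -0.02 over all genes tested, and 27 of 29 members were above 0. For 20 of the 29 all 4 RGM libraries lay above all 4 V6.5 libraries, as they did for 20.6% of all genes, and for 1, Timp1, all 4 lay below, as for 20.6% of all genes. The higher members came from every role in the list, and 15 of them had a log2 fold change of at least 1, with Fn1 just below at 0.995. Because run and line coincide, each of these differences is one of cell line and run at once.

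**Figure D2:**
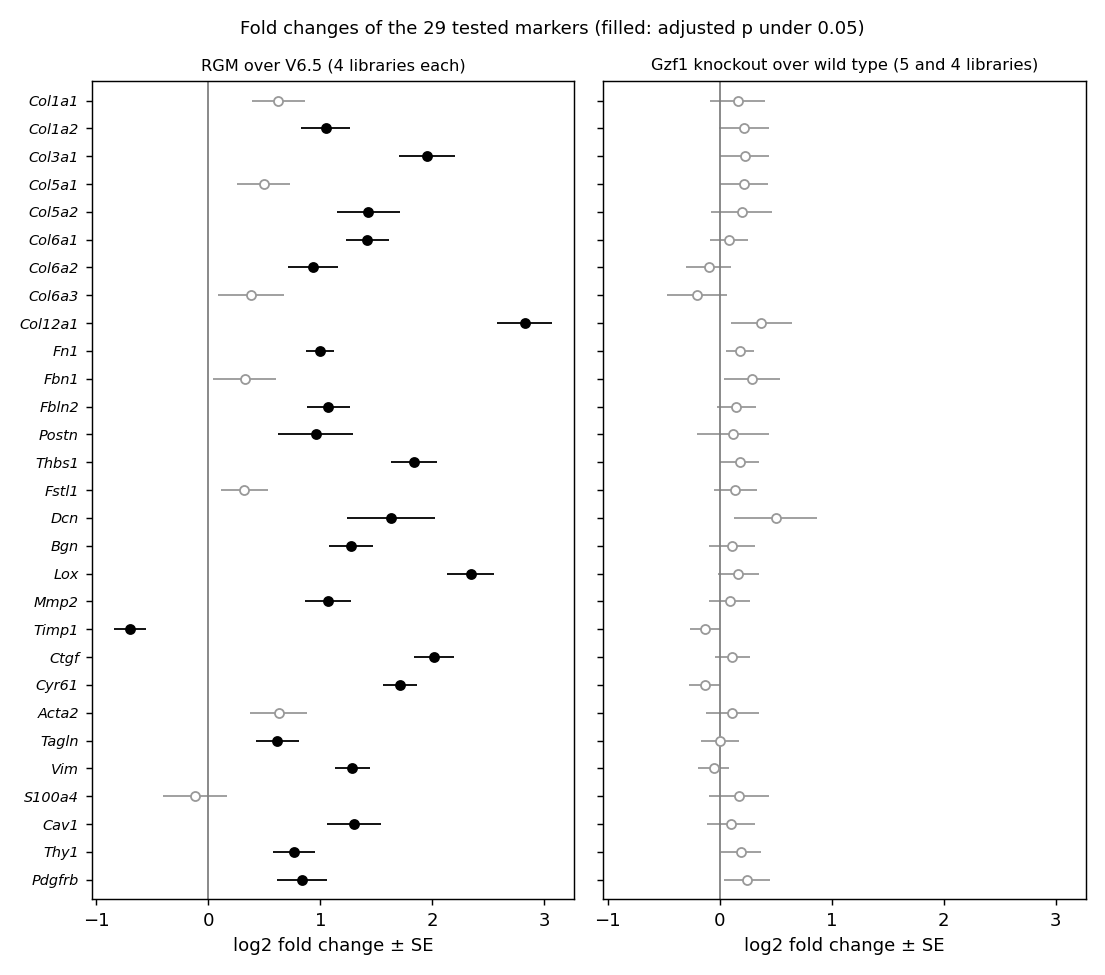
Log2 fold changes with their standard errors for the 29 tested markers: RGM over V6.5 cells on the left and Gzf1 knockout over wild type on the right, on a shared axis. Filled points passed an adjusted p of 0.05; 22 are filled on the left, 21 above 0 and Timp1 below it, and 0 on the right.

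Promoters of members that differed between the lines and of members that did not are printed to let their sequences be set side by side. RefSeq promoters were found for 17 of the 31 members, 20 in all, each 300 bases long, and the stretches shown run from 130 bases before the start of transcription to 20 bases after it on GRCm38.p6. Cyr61 and Vim were higher in RGM cells, S100a4 was not called and Timp1 was lower. Capitals mark TATAAA on the coding strand, and GGAATG, the core letters of sites bound by TEAD factors, which read as CATTCC where the match is on the other strand.
Cyr61 (minus strand, chr3:145649966-145650115): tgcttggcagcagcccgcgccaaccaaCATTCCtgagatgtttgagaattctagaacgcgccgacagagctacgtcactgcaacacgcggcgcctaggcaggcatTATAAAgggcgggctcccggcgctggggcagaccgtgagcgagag
Vim (plus strand, chr2:13574181-13574330): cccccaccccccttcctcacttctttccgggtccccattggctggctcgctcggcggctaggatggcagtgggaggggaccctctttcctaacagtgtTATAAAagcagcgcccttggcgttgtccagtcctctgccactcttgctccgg
S100a4 (plus strand, chr3:90603640-90603789): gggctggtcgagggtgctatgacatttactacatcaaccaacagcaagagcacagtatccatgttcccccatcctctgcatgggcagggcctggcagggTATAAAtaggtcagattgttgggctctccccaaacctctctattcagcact
Timp1 (plus strand, chrX:20870036-20870185): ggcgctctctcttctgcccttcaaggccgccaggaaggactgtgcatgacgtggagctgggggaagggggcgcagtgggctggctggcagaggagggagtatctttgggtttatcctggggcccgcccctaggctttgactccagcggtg

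TATAAA begins 25 bases before the start in Cyr61, 32 bases before it in Vim and 31 bases before it in S100a4. Cyr61 also holds GGAATG on the other strand, 103 bases before the start. The printed stretch of Timp1 holds neither motif, but its full window holds GGAATG on the coding strand, upstream of that stretch. Over whole windows, TATAAA on the coding strand was in 5 of 20 member promoters (25%) and in 8.3% of the 32851 mouse promoters of the same length. GGAATG on either strand was in 25% of member and 14.7% of all promoters, and CCAAT on either strand was in 20% of member and 37.4% of all promoters. The CArG box, a site of serum response factor, was searched only as the strict form CCWWWWWWGG, where W is A or T. That form was in 0 of the 20 and in 1.6% of all. Sites that differ from it by a letter were not counted, so the 0 does not mean that members lack such sites. The motifs do not overlap in the printed stretches, and a match is only a match of letters.

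Of the fibrillar collagens, 3 of 5 were higher in RGM cells. Col3a1, the chain of type III collagen (chromosome 1, 45311538 to 45349706, mm10), measured 105 and 267 CPM in RGM knockout and 163 and 162 CPM in RGM wild-type libraries, against 53.0, 52.2 and 37.9 CPM in V6.5 knockout libraries and 42.6 CPM in the V6.5 wild type. The groups were far apart and Col3a1 was 3.87-fold higher (log2 fold change 1.95, SE 0.25, adjusted p = 0.00011); the Cas9-GFP wild type had 37.5 CPM. Col1a2, which supplies the second chain of type I collagen, measured 231 and 434 CPM in RGM knockout and 332 and 275 CPM in RGM wild-type libraries, against 214, 128 and 124 CPM in V6.5 knockout libraries and 156 CPM in the V6.5 wild type, with 98.0 CPM in the Cas9-GFP wild type. Every RGM library lay above every V6.5 library for Col1a2 (log2 fold change 1.05, SE 0.22, adjusted p = 0.0029). Col5a2, a chain of type V collagen, which sets fibril width, was also higher, at 53.9 ± 18.8 CPM in RGM and 20.03 ± 6.16 CPM in V6.5 cells (log2 fold change 1.43, SE 0.28, adjusted p = 0.0019).

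The main chain of type I collagen did not pass. Col1a1 (chromosome 11, 94936224 to 94953042, mm10) measured 284 and 575 CPM in RGM knockout and 407 and 352 CPM in RGM wild-type libraries, against 350.2, 213 and 190.1 CPM in V6.5 knockout libraries and 294 CPM in the V6.5 wild type. The lines overlapped, since V6.5 knockout replicate 3 stood above RGM knockout replicate 1, and the adjusted p fell just short (log2 fold change 0.63, SE 0.24, adjusted p = 0.052). Col1a1 was called higher in 5 of 18 other settings: with DESeq2, with no low-count filter, without knockout replicate 1, without knockout replicate 3 and for run2 against run1. The Cas9-GFP wild type had 160.2 CPM, the lowest Col1a1 value of the 9. Col5a1, the partner of Col5a2, averaged 55.7 ± 15.6 CPM in RGM and 40.5 ± 9.51 CPM in V6.5 cells and was not called (log2 fold change 0.49, SE 0.24, adjusted p = 0.11), though it was in 1 of 17 other settings.

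Of the 4 other collagens, 3 were higher. Col12a1 codes for a collagen that sits on the surface of fibrils (chromosome 9, 79598991 to 79718831, mm10), and it measured 31.1 and 44.2 CPM in RGM knockout and 32.3 and 36.3 CPM in RGM wild-type libraries, against 5.67, 3.55 and 6.72 CPM in V6.5 knockout libraries and 4.67 CPM in the V6.5 wild type. The Cas9-GFP wild type had 1.88 CPM. Col12a1 had the highest fold change among the 29, 7.07-fold (log2 fold change 2.82, SE 0.25, adjusted p = 9.5e-06), and no RGM value came near a V6.5 value. The chains of type VI collagen, which forms beaded filaments around cells, gave unlike values. Col6a1 averaged 61.2 ± 6.15 CPM in RGM and 23.0 ± 4.62 CPM in V6.5 cells (log2 fold change 1.42, SE 0.19, adjusted p = 0.00016). Col6a2 averaged 34.3 ± 6.20 CPM in RGM and 17.7 ± 4.30 CPM in V6.5 cells (log2 fold change 0.93, SE 0.22, adjusted p = 0.0058). Col6a3 averaged 9.84 ± 3.02 CPM in RGM and 7.10 ± 1.38 CPM in V6.5 cells (log2 fold change 0.38, SE 0.29, adjusted p = 0.32). Col6a1 and Col6a2 passed and Col6a3 did not; whether the 3 fold changes differ was not tested.

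Of the 6 matrix glycoproteins, 4 were higher. Thbs1, thrombospondin, which binds matrix and activates latent TGF-beta, measured 383 and 706 CPM in RGM knockout and 558 and 497 CPM in RGM wild-type libraries, against 198, 159 and 129 CPM in V6.5 knockout libraries and 132 CPM in the V6.5 wild type, with 133 CPM in the Cas9-GFP wild type (log2 fold change 1.84, SE 0.20, adjusted p = 4.4e-05). Fn1 averaged 992 ± 129 CPM in RGM and 506 ± 31.7 CPM in V6.5 cells (log2 fold change 1.00, SE 0.13, adjusted p = 0.00011), with every RGM library above every V6.5 library. Fbln2, fibulin-2, which joins elastic fibres and basement membranes, averaged 169 ± 33.2 CPM in RGM and 81.7 ± 18.2 CPM in V6.5 cells (log2 fold change 1.07, SE 0.19, adjusted p = 0.0011). Postn, periostin, a protein of remodelling matrix, averaged 12.2 ± 1.09 CPM in RGM and 6.19 ± 2.38 CPM in V6.5 cells (log2 fold change 0.96, SE 0.33, adjusted p = 0.037). The Postn call was weak: it held in 11 of 18 other settings. Fbn1, the microfibril protein fibrillin-1, and Fstl1 were not called, with log2 fold changes of 0.32 (SE 0.28) and 0.32 (SE 0.21).

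Of the 3 small proteoglycans 2 were tested, and both were higher in RGM cells. Bgn, biglycan, measured 254 and 396 CPM in RGM knockout and 380.4 and 373 CPM in RGM wild-type libraries, against 192, 137 and 110.0 CPM in V6.5 knockout libraries and 134 CPM in the V6.5 wild type, with 89.0 CPM in the Cas9-GFP wild type (log2 fold change 1.27, SE 0.20, adjusted p = 0.00042). Dcn was higher as well (log2 fold change 1.63, SE 0.39, adjusted p = 0.0058), from the values given above, though not without wild-type replicate 3 or knockout replicate 2. Lum, lumican, was not tested. It had 7 and 18 counts in RGM knockout and 9 and 5 counts in RGM wild-type libraries, against 6, 5 and 1 counts in V6.5 knockout libraries, 0 in the V6.5 wild type and 3 in the Cas9-GFP wild type. In CPM the 4 RGM values of Lum, 2.24 and 7.10 in knockout and 2.43 and 1.97 in wild-type libraries, lay above the 4 V6.5 values, 0.830, 1.04 and 0.164 in knockout libraries and 0 in the wild type.

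The enzymes and their inhibitor split. Lox, lysyl oxidase, which cross-links collagen and elastin, measured 243 and 487 CPM in RGM knockout and 363 and 300.3 CPM in RGM wild-type libraries, against 89.2, 66.0 and 62.9 CPM in V6.5 knockout libraries and 64.2 CPM in the V6.5 wild type, and 63.1 CPM in the Cas9-GFP wild type. Its fold change of 5.06 was the second highest of the members (log2 fold change 2.34, SE 0.21, adjusted p = 1.3e-05). The libraries of run1 were close together except knockout replicate 3, which stood above the others at 89.2 CPM. Mmp2, a gelatinase that cuts matrix, averaged 56.0 ± 6.33 CPM in RGM and 26.7 ± 6.61 CPM in V6.5 cells (log2 fold change 1.07, SE 0.21, adjusted p = 0.0016). Timp1, an inhibitor of such proteases (chromosome X, 20870166 to 20874735, mm10), went the other way. It measured 101 and 141 CPM in RGM knockout and 134 and 144 CPM in RGM wild-type libraries, against 215, 206 and 168 CPM in V6.5 knockout libraries and 225 CPM in the V6.5 wild type, with 189.6 CPM in the Cas9-GFP wild type. Timp1 was the 1 member that was lower in RGM cells (log2 fold change -0.70, SE 0.15, adjusted p = 0.0025), and all 4 RGM libraries lay below the 4 V6.5 libraries. In the annotation the end of Timp1 overlaps Syn1 on the opposite strand, and whether counting used strand is not given. Fap, a surface protease of activated fibroblasts, was not tested, with 1 and 6 counts in RGM knockout and 8 and 5 in RGM wild-type libraries, against 0, 0 and 5 counts in V6.5 knockout libraries, 0 in the V6.5 wild type and 1 in the Cas9-GFP wild type.

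Both CCN proteins were higher in RGM cells. Ctgf (chromosome 10, 24595442 to 24598683, mm10) and Cyr61, also called Ccn1 (chromosome 3, 145646976 to 145649981, mm10), are secreted proteins whose genes respond to serum and to the factors YAP and SRF. From the Ctgf values given above, the RGM libraries lay between 413 and 482 CPM and the V6.5 libraries between 76.1 and 139 CPM, a 4.03-fold difference (log2 fold change 2.01, SE 0.18, adjusted p = 1.1e-05). Cyr61 measured 249.5 and 225 CPM in RGM knockout and 229 and 269 CPM in RGM wild-type libraries, against 73.1, 87.9 and 60.2 CPM in V6.5 knockout libraries and 74.0 CPM in the V6.5 wild type, with 94.8 CPM in the Cas9-GFP wild type (log2 fold change 1.71, SE 0.15, adjusted p = 9.2e-06). For both genes the 4 RGM libraries were close together, which was not so for Col1a1 or Col3a1.

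Of the 5 genes of cytoskeleton and membrane, 3 were higher. Vim, the intermediate filament protein vimentin (chromosome 2, 13573927 to 13582826, mm10), measured 1109.6 and 1442 CPM in RGM knockout and 1424 and 1284 CPM in RGM wild-type libraries, against 632, 550.1 and 414 CPM in V6.5 knockout libraries and 540.3 CPM in the V6.5 wild type. The Cas9-GFP wild type had 547 CPM. Vim was 2.44-fold higher with no overlap (log2 fold change 1.28, SE 0.15, adjusted p = 7.9e-05). Cav1, the coat protein of caveolae, averaged 60.7 ± 20.9 CPM in RGM and 24.7 ± 3.39 CPM in V6.5 cells (log2 fold change 1.30, SE 0.24, adjusted p = 0.0013). Tagln, the actin-binding protein transgelin, averaged 128 ± 25.3 CPM in RGM and 83.2 ± 17.9 CPM in V6.5 cells (log2 fold change 0.61, SE 0.19, adjusted p = 0.022), with overlap. The ends of Tagln and Cav1 overlap other annotated transcripts on the opposite strand. Acta2, smooth muscle actin, was not called, at 165 ± 55.6 CPM in RGM and 109 ± 30.8 CPM in V6.5 cells (log2 fold change 0.63, SE 0.26, adjusted p = 0.067), but it was called higher in 6 of 18 other settings.

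S100a4, a calcium-binding protein long used as a fibroblast marker, did not follow the others. It measured 57.3 and 136 CPM in RGM knockout and 108 and 48.9 CPM in RGM wild-type libraries, against 119, 86.5 and 82.6 CPM in V6.5 knockout libraries and 99.5 CPM in the V6.5 wild type, with 81.0 CPM in the Cas9-GFP wild type. The lines overlapped entirely and the difference was not called (log2 fold change -0.12, SE 0.28, adjusted p = 0.76), with a standard error that leaves room for a change in either direction. The end of S100a4 overlaps the gene model Gm42674 on the same strand. The 2 surface proteins were higher. Thy1, a membrane glycoprotein of fibroblasts, averaged 94.7 ± 19.4 CPM in RGM and 56.3 ± 10.3 CPM in V6.5 cells (log2 fold change 0.76, SE 0.19, adjusted p = 0.0063). Pdgfrb, a receptor for platelet-derived growth factor, averaged 19.96 ± 4.35 CPM in RGM and 11.4 ± 1.11 CPM in V6.5 cells (log2 fold change 0.84, SE 0.22, adjusted p = 0.0095).

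**Figure D3:**
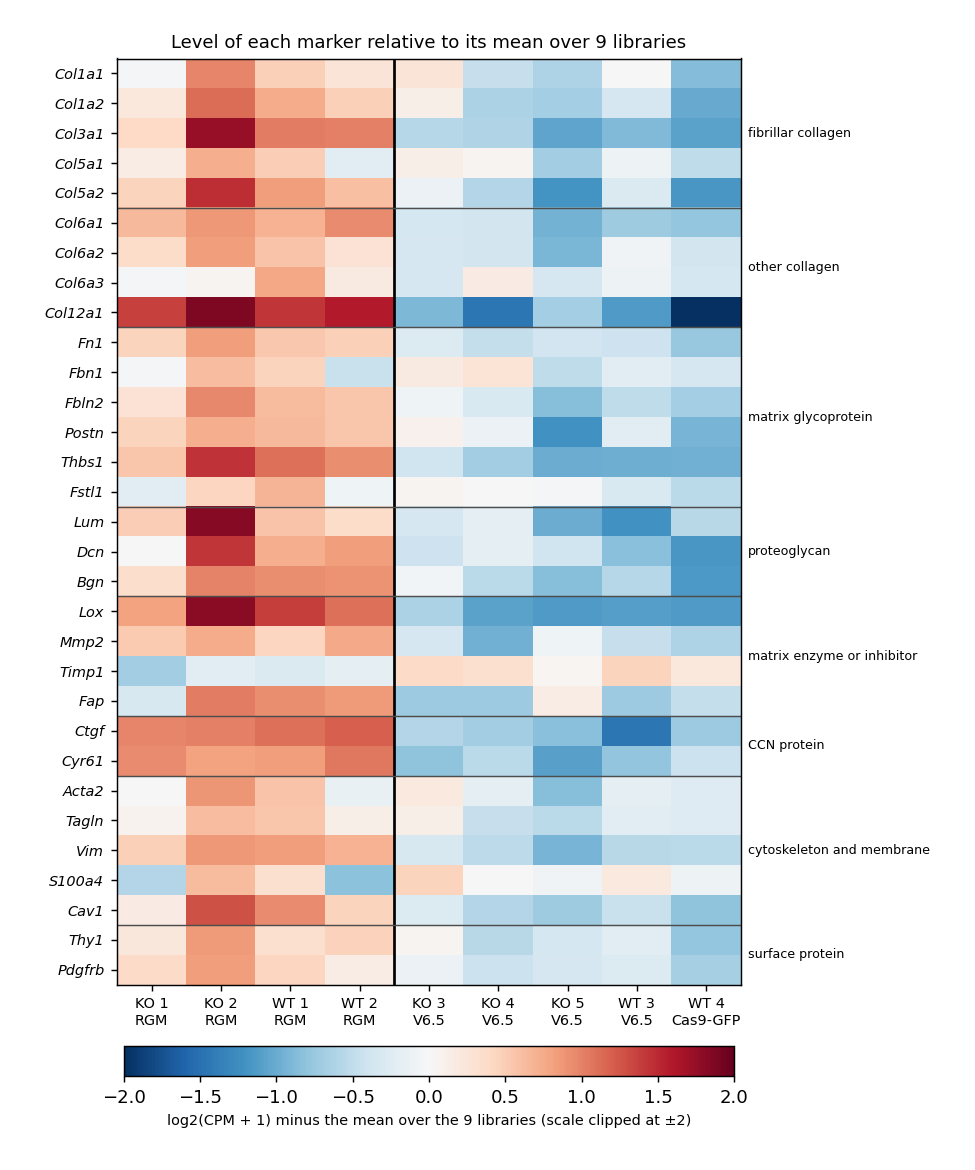
Level of each of the 31 markers in each library, as log2(CPM + 1) minus its mean over the 9 libraries, with red above and blue below the mean and the colour scale ending at 2 in either direction; rows are grouped by role and the black line parts RGM cells (left) from run1 (right). Most rows are red on the left and blue on the right; Timp1 runs the other way, and knockout replicate 2 is the reddest column.

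How firm the call was differed between members. In all 18 other settings, which changed the tool, the scaling, the filter or the libraries, 15 members were called: Col1a2, Col3a1, Col5a2, Col6a1, Col12a1, Fn1, Fbln2, Thbs1, Bgn, Lox, Mmp2, Ctgf, Cyr61, Vim and Cav1. Without knockout replicate 2, 16 members were higher, and Thy1, Pdgfrb and Dcn were no longer called, and neither were Postn and Tagln. Tagln was called in 13 of the 18 settings. Timp1, Col6a2, Pdgfrb, Postn and Tagln were not called when wild-type libraries alone were compared. That comparison set RGM cells against the V6.5 and Cas9-GFP wild types together.

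Within a line the markers also differed from library to library. Among the 4 RGM libraries, knockout replicate 2 had the highest value for 22 of 29 members (75.9%), where it was highest for 29.6% of all genes tested. Knockout replicate 1 was the lowest for 21 of 29 (72.4%), against 23.5% of all genes. The knockout libraries of RGM cells thus held the ends of the range, with the wild-type libraries between them for most members. Among the 5 libraries of run1, knockout replicate 3 was the highest for 21 of 29 members (72.4%), against 19.2% of all genes. Knockout replicate 5 was the lowest for 14 of 29 and the Cas9-GFP wild type for 13 of 29, against 25.1% and 17.1% of all genes.

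The size of the gap between the RGM knockout libraries differed from gene to gene. The ratio of knockout replicate 2 to knockout replicate 1 had a median of 1.55 over the 29 tested members and was above 1 for 28 of them, against a median of 1.00 and 50.5% of genes above 1 over all genes. It was 3.13 for Dcn, 2.54 for Col3a1, 2.37 for S100a4, 2.17 for Cav1, 2.07 for Col5a2, 2.03 for Col1a1 and 2.01 for Lox. It was nearer 1 for Fn1 (1.31), Vim (1.30), Col6a1 (1.17) and Mmp2 (1.17), and for the CCN proteins it was 1.02 (Ctgf) and 0.903 (Cyr61). With 1 library on each side these ratios have no replicate check. Ctgf and Cyr61 therefore rank among the members that differed most between the lines and among those that differed least between these libraries, while S100a4 and Col1a1, which did not pass between the lines as fitted here, had ratios above 2.

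**Figure D4:**
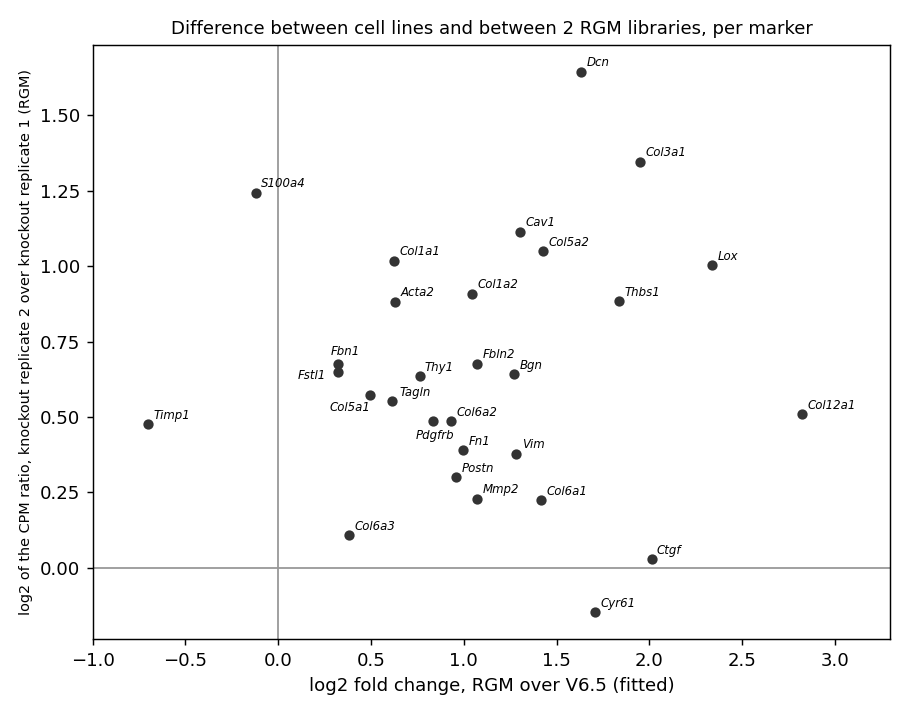
For each of the 29 tested markers, the fitted log2 fold change of RGM over V6.5 cells (horizontal) against the log2 ratio of CPM in knockout replicate 2 over knockout replicate 1, both RGM (vertical). Ctgf and Cyr61 lie far right and near 0 on the vertical axis, S100a4 lies high and near 0 on the horizontal axis, and Timp1 is the far-left point; the axes share the 2 libraries, so no measure of their relation is given.

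In RGM cells the sign of the knockout comparison rested on single libraries. Without knockout replicate 1 the median log2 fold change of the 29 members in RGM cells was 0.41, with 26 above 0, and without knockout replicate 2 it was -0.29, with 2 above 0; with both it was 0.10. No member passed the test in any of these. In run1 the wild types are of different lines, and the ratio of the Cas9-GFP to the V6.5 wild type was 0.404 for Col12a1, 0.544 for Col1a1, 1.01 for Vim, 1.28 for Cyr61 and 1.65 for Ctgf. All 9 collagen members had a ratio below 1 and both CCN genes a ratio above 1, from 1 library on each side.

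**Figure D5:**
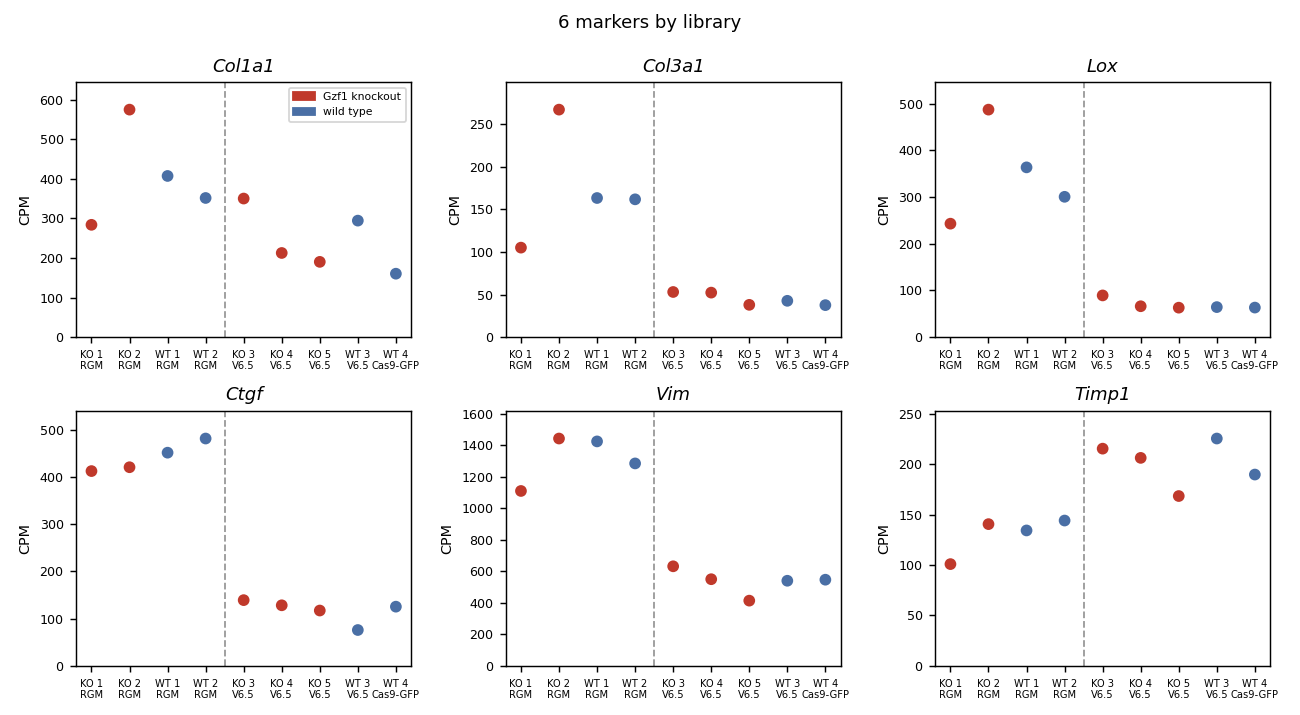
CPM of 6 markers in each library, with Gzf1 knockout in red and wild type in blue and the dashed line between RGM cells (left) and run1 (right). Col1a1 spreads within each line, Col3a1, Lox, Ctgf and Vim are higher in all 4 RGM libraries, and Timp1 is lower in them.

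Genes outside the list were named by how closely they tracked the summed members once each run was centred on its own mean, a description over 9 libraries. The highest coefficients were those of Cflar (Pearson r 0.988), Dnm3os (0.969), Sdccag8 (0.969), Aebp1 (0.962), Cyp1b1 (0.961), Rsad1 (0.958), the row AK051864;Col8a1 (0.955) and Mgp (0.948). Of these Aebp1, Col8a1 and Mgp encode extracellular matrix proteins and Dnm3os is a non-coding RNA of mesenchyme. Mgp, which inhibits calcification of matrix, measured 326 and 706 CPM in RGM knockout and 519 and 414 CPM in RGM wild-type libraries, against 510.4, 302 and 259.8 CPM in V6.5 knockout libraries, 414 CPM in the V6.5 wild type and 311 CPM in the Cas9-GFP wild type. In RGM cells the order of the libraries for Mgp was that of the summed members, with knockout replicate 2 highest. In run1 knockout replicate 3 was highest for both, but the Cas9-GFP wild type and knockout replicate 4 stood in reverse order. The lines overlapped for Mgp. Cflar, Dnm3os, Sdccag8 and Rsad1 were below 8 CPM in every library, where counting error is large.

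Related gene lists were set beside the members in the same comparison of RGM with V6.5 cells, in which 19.8% of all genes were higher and 20.5% lower. Of 30 other fibroblast matrix and secreted genes, 18 were higher and 2 lower, with a median log2 fold change of 0.92. In all 5 of the 30 were below 0, the lowest at -1.41. The largest changes were all rises. They were those of Ptx3, a secreted pattern recognition protein, at 3.58 (SE 0.36), Eln, elastin, at 1.98 (SE 0.43), and Fbln5, an elastic fibre protein, at 1.88 (SE 0.39). Ptx3 averaged 11.8 CPM in RGM and 0.950 CPM in V6.5 cells, near the floor of counting. It passed the low-count filter only through the RGM libraries, and it is counted among the 18. The summed level of the 30 genes was 2709 and 4009 CPM in RGM knockout and 3392 and 3106 CPM in RGM wild-type libraries. It was 2669, 2254 and 2246 CPM in V6.5 knockout libraries and 2441 CPM in the V6.5 wild type. Knockout replicate 2 was again the highest library and knockout replicate 1 the lowest of RGM cells.

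Regulators and processing enzymes moved in both directions. Values in brackets are log2 fold changes of RGM over V6.5 cells. Of 12 tested mesenchymal transcription factors, Snai1 was higher (1.86, SE 0.21) and Twist1 lower (-0.95, SE 0.25) in RGM cells, with a median of 0.22. Prrx1 (0.66, SE 0.32) and Prrx2 (-0.12, SE 0.28), homeobox factors of limb and body wall mesenchyme, were not called, and Tcf21 and Meox2 had at most 3 counts in any library. Of 16 genes for collagen maturation 2 were higher and 3 lower, with a median of -0.02. P4ha3, a collagen prolyl hydroxylase, was higher (2.09, SE 0.36), while Crtap (-0.86, SE 0.22) and Pcolce (-0.74, SE 0.19), which modify and cleave procollagen with their partners, were lower. Over 9 tested smooth muscle and contractile genes 3 were higher, among them Cnn1 (1.47, SE 0.29) and Tpm1 (1.30, SE 0.15), with a median of 0.55. Over 9 targets of YAP and SRF 2 were higher, Amotl2 (1.91, SE 0.25) and Vcl (0.70, SE 0.25), with a median of 0.50. The share called higher was 8.33% of the mesenchymal factors, 12.5% of the genes for collagen maturation and 22.2% of the YAP and SRF targets, near or below the 19.8% of all genes. It was 33.3% of the contractile genes, above that share but only 3 of 9. In the contractile list and in the YAP and SRF list 0 genes were called lower. In each of them 8 of 9 were above 0, against 49.1% of all genes.

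Markers of other cells were examined in the same way. Of 10 endoderm matrix genes, which embryonic stem cells turn on as they differentiate, 7 were tested. Of these, 2 were higher, Dab2 (3.04, SE 0.27) and Lamb1 (0.83, SE 0.15). Lamc1 (-0.14, SE 0.24) and Col4a1 (-0.13, SE 0.21) were below 0 and not called. The share of this list called higher was 28.6%, above the 19.8% of all genes but only 2 of 7, and its median was 0.29. Its summed level was 313 to 385 CPM in RGM and 235 to 403 CPM in V6.5 cells, which overlap. Of 14 stem cell genes 2 were higher and 3 lower in RGM cells, with Zfp42 at 3.26 (SE 0.14), Tdgf1 at -1.46 (SE 0.18), Fgf4 at -1.31 (SE 0.17) and Klf4 at -1.30 (SE 0.16), and the median was 0.05. These are 14.3% higher and 21.4% lower, near the shares of all genes. Of 8 macrophage markers 1, Cd68, passed the low-count filter and was higher (0.98, SE 0.35). The lines overlapped for Cd68, with 25.7 CPM in RGM knockout replicate 2 and 37.5 CPM in V6.5 knockout replicate 5. The untested Lyz2, Cd14 and C1qa went the other way, near the floor of counting. They averaged 0.837, 0.868 and 0.179 CPM in RGM and 2.98, 1.76 and 1.57 CPM in V6.5 cells. The macrophage list summed to 20.9 to 52.9 CPM over the libraries, with C1qa at 0 to 2.21 CPM. Of 6 endothelial markers 3 were tested and 0 called, and Kdr and Emcn had at most 3 counts in any library. Keratinocyte markers summed to 1.60 to 4.15 CPM. The part of differentiation, of cell line and of feeder carry-over in the members' difference was not tested.

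Over all 9 libraries 0 genes of the 10 lists were called in the knockout, and the medians of the log2 fold change were 0.09 for the other fibroblast genes, 0.13 for the mesenchymal factors, 0.06 for collagen maturation and 0.01 for the stem cell genes. An unadjusted p under 0.05 was seen for 4 of 30 other fibroblast genes, 1 of 12 mesenchymal factors and 1 of 14 stem cell genes, and for 293 of all 12645 genes tested (2.32%).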

How the data were processed

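The authors deposited 1 table of raw counts per gene symbol for the 9 poly(A)+ libraries, made by MARS-seq2.0 per the labels' protocols, which reads the 3' ends of transcripts. The submitters' processing notes list STAR, DESeq2 and the build mm10. The counter, the annotation, the use of strand and whether molecules or reads were counted are not stated. Of 30324 rows, 92 spike-in rows (1 count in all) were left out, and 9860 gene rows had no count.

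Genes were kept with filterByExpr (minimum count 10), leaving 12645, scaled with TMM factors and tested with the robust quasi-likelihood F test of edgeR 4.0.16 (R 4.3.3), Benjamini-Hochberg adjusted over all of them, threshold 0.05. All adjusted p-values given without another tool's name are from edgeR. The knockout effect was fitted with run as a term, the effects within runs and their difference as contrasts of 4 groups, and RGM against V6.5 cells with genotype as a term and Cas9-GFP as a level of its own. The standard error is the absolute log2 fold change over the square root of F. The scripts were tested on simulated data. Alternatives were DESeq2 1.42.0, limma 3.58.1 (voom), other scalings, filters and covariates, and leaving out each library.

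The members and the other gene lists were chosen with earlier results of these data known. Named were all members, the 8 other genes tracking their summed level best, and up to 4 genes of each list, first those called between the lines with the largest change, then the highest. All 31 members matched GENCODE M21 (GRCm38, also called mm10) and 17 matched a RefSeq promoter; 15 overlap another annotated gene, 10 of them on the opposite strand. Every pair of libraries of 1 genotype and run differed by more than sampling noise (chi-square per degree of freedom 2.5 to 25.9, the pair of wild-type replicates 3 and 4 being of different lines), so none was merged; this does not show that they came from separate cultures.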

Additional observations from a re-analysis of the deposited data

Results flagged for a closer look

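In 7 of 128 groups of libraries 1 value stood far from the rest, with a gap to its neighbour that took up most of the range of the group. Chance gives about 1 in 20 groups, and 7 of 128 is near that share, so the values below are descriptions. Knockout replicate 2, an RGM library, stood above the other knockout libraries for Dcn at 13.0 CPM and for Cav1 at 86.0 CPM, and above the other RGM libraries for Lum at 7.10 CPM. Knockout replicate 1 stood below the other RGM libraries for Bgn at 254 CPM. Knockout replicate 3 stood above the other V6.5 libraries for Lox at 89.2 CPM, and knockout replicate 5 for Fap at 0.820 CPM, which rests on 5 counts. Wild-type replicate 1 stood above the other wild-type libraries for Acta2 at 187 CPM. For Dcn, Cav1 and Acta2 the group mixes cell lines. Dcn and Cav1 were higher in RGM cells, and Acta2 was not called between the lines.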

How the results depend on the processing

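In the knockout comparisons, 0 members were called under every alternative run. Leaving out 1 library moved the members' median log2 fold change within RGM cells between -0.29 (without knockout replicate 2) and 0.41 (without knockout replicate 1), and that of the difference between runs between -0.44 (without knockout replicate 2) and 0.16. Between the lines, 16 (without knockout replicate 2) to 23 members were higher when 1 library was left out, 23 with DESeq2, 21 with limma voom, 25 of 31 without the low-count filter, 24 for run2 against run1 and 19 among knockout libraries. The setting with wild-type libraries alone compared RGM cells with the V6.5 and Cas9-GFP wild types together. There 17 members were higher and 0 lower, with Timp1 at an adjusted p of 0.060. The replicate block, which used the replicate number in place of run, gave 0 members and a median of 0.20 in the knockout comparison. With it 6 genes were called in all, against 4 with run as a term. The deviations of libraries with the same number had correlations of -0.065 to 0.335, with -0.065 for both replicates 1 and 2. Number 4 joins a Cas9-GFP wild type to a V6.5 knockout. So few libraries cannot show whether the numbers pair them. Over single members and levels, 12 of the alternative values gained a call, 19 lost it and 0 changed sign while called. Another 98 moved: members uncalled in both fits that shifted by the main standard error or more, or levels that shifted by their SD or more. The remaining 2344 did none of these, and they include members never called and levels, which have no test. The smaller RGM libraries limit Lum, Fap, Dcn and other low genes, and cell line and run cannot be told apart.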
